A study of Mus musculus with 32 samples.

Results

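The genes described here are Rnase4, Ang (angiogenin), Rnase1, Rnase2a and Rnase6, which are 5 secreted ribonucleases of the ribonuclease A family, and Rnh1, their intracellular inhibitor. They were found by their Ensembl identifiers among 50600 gene rows measured by RNA sequencing in 32 primary mouse melanomas. All 6 had a row, and 5 of the 6 passed the filter on low counts that left 17717 genes for testing, Rnase2a being the exception. Rnase4 was selected on its own values in these tumours, because it differed between Ecad and ΔEcad females and between the sexes in Ecad tumours, and those values are given as a description without a p-value.

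Ribonucleases of this family are small secreted proteins that cut single-stranded RNA. Angiogenin was found as a factor that makes blood vessels grow, is taken up by cells, and under stress cuts transfer RNAs in the cytoplasm. Plexin B2 is known as one of its receptors. RNase 4 is its close relative, and in mammals both are encoded in a single locus where alternative first exons are spliced to either coding exon, with much of the expression in liver. RNase 1 is made by pancreas and by endothelium, RNase 6 by monocytes and macrophages, and the Rnase2 and Ear genes by eosinophils and related cells. The inhibitor encoded by Rnh1 is an abundant protein made of leucine-rich repeats that binds these enzymes very tightly inside cells.

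The tumours came from C57BL/6J mice, all with the Tyr::NrasQ61K transgene, 1 functional Cdkn2a allele and both Cdh1 alleles floxed. Ecad mice carried no further transgene (°/°), so that E-cadherin could be made. ΔEcad mice lost Cdh1 through a Cre recombinase under the tyrosinase promoter, which is active in the pigment cell lineage, so that other cells of the tumour are not its target. The labels write this slot of the ΔEcad genotype as Tyr::NRAS/°, whereas the study's methods describe Tyr::CreA. There were 4 groups of 8 tumours, male and female of each genotype, without ages. Neither the labels nor the methods state that tumours of a group came from separate mice, so p-values measure the spread between these tumours.

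Libraries held 24036333 to 63923086 counts. Cdh1, the targeted gene, had a median of 145 TPM (transcript abundance scaled by gene length and library size), with a range of 25 to 282, in Ecad males against 3.29 TPM (0.79 to 65.2) in ΔEcad males. In females the medians were 30.6 TPM (2.16 to 151) in Ecad and 46.7 TPM (0.17 to 143) in ΔEcad, so bulk Cdh1, counted over the whole gene, did not separate the genotypes. Several libraries stood apart. The library labelled ΔEcad male 2 had 0 counts over 4 Y-linked genes, against at least 1459 in the other males, and 6.41 TPM of Xist. ΔEcad male 7 held 31.5 TPM summed over 7 melanocytic markers, against at least 5773 TPM elsewhere. ΔEcad female 3 held 11.7 TPM over 8 macrophage and 0.78 TPM over 7 endothelial markers, against at least 197 and 16.8 TPM elsewhere. Results for the members without these 3 libraries are also given where a call or a sign changed, and for some other values. Of the others, ΔEcad female 1 had 92 counts over the 4 Y-linked genes, against at most 4 in other females, and Ecad female 3 had very many reads of the salivary genes Bpifa2 and Amy1, and the values without each of them are given beside Rnase4 and Ang.

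Rnase4 (ENSMUSG00000021876, chr14:51091077-51106151, plus strand, GRCm38) and Ang (ENSMUSG00000072115, chr14:51091150-51102009, plus strand) overlapped each other. Each had 2 transcripts in GENCODE M21, and each transcript joined a non-coding first exon to a last exon that holds the whole coding part. The coding part of Ang lay inside the Rnase4 intron, 2982 bases before that of Rnase4. The genes shared 219 exonic bases, which were 13.4% of the Rnase4 exons and 18.2% of the Ang exons, and 0 coding bases. Reads from the shared first exons cannot be given to either gene by position alone, and how such reads were counted was not stated. Most exonic bases, 1418 of Rnase4 and 983 of Ang, belonged to 1 gene only.

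**Figure D1:**
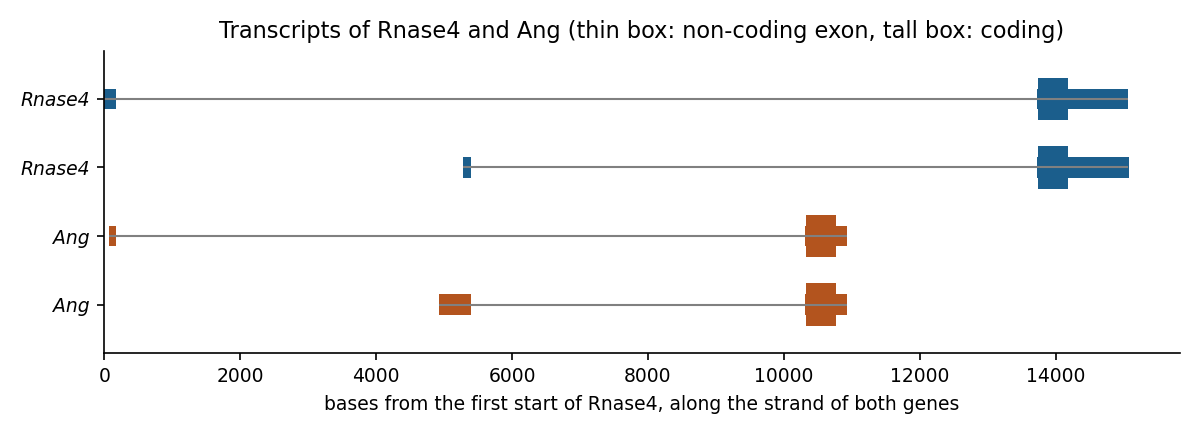
Transcripts of Rnase4 (blue) and Ang (orange), drawn to scale in bases from the first Rnase4 start, with thin boxes for non-coding exons, tall boxes for coding parts and grey lines for introns. The first exons of both genes overlap at the left end and again at the internal start, the coding boxes do not overlap, and 219 exonic bases are common to both.

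The promoter sequences of this locus are shown because both genes start from them. RefSeq (GRCm38.p6) gave Rnase4 and Ang the same first window, and listed a second, internal one under Rnase4. In GENCODE M21 a transcript of Ang begins at the base that follows the second window. The 250 bases before each start are printed 5′ to 3′ on the plus strand.
Start shared by Rnase4 and Ang, chr14:51090827-51091076: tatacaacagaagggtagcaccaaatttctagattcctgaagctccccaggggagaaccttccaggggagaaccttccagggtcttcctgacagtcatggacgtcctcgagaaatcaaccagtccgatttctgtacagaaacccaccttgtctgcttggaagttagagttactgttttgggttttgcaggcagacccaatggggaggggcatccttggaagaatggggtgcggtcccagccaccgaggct
Internal start, chr14:51095750-51095999: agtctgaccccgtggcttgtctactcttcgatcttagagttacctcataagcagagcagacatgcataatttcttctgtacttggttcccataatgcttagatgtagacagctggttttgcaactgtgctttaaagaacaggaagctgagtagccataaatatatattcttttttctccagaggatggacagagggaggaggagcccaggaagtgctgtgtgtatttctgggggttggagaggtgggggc
Matches to 9 motifs would stand in capitals, and neither window held one. Both strands were searched, and the share of 32817 RefSeq windows of this length with a match is given for each. The motifs were the TATA box TATAAA (12.4%), the GC box GGGCGG (32.7%), the MITF motif TCATGTG (3.25%), the E-box CACGTG (6.02%), the AP-1 site TGACTCA (4.46%), the ETS core CCGGAAGT (2.88%), the oestrogen response half-site AGGTCA (14%), the full oestrogen response element that can overlap it (0.064%), and the HNF1 site (0.00914%). The shared window had 52.4% G and C and the internal one 46.0%, within the 40.0 to 55.2% of the 8 windows of the other 4 genes.

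Rnase4 was the most abundant of the 5 ribonucleases in every group. The lowest, median and highest levels in Ecad tumours were 145, 201 and 248 TPM in males, and 25.3, 34.0 and 50.9 TPM in females. In ΔEcad tumours they were 38.4, 111 and 260 TPM in males and 12.02, 108 and 364 TPM in females. Every Ecad male thus lay above every Ecad female, whereas the ΔEcad groups spanned nearly the whole scale and overlapped both. The lowest and the highest of all 32 tumours were both ΔEcad females, numbers 4 and 1.

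Mean levels of Rnase4 were 195 ± 36.3 TPM and 37.1 ± 8.89 TPM for Ecad males and females, and 137 ± 80.9 TPM and 133 ± 108 TPM for their ΔEcad counterparts (SD, n = 8 each). In order from the lowest mean, Ecad females were followed by ΔEcad females, ΔEcad males and Ecad males. Only the first step of this order was larger than the pooled SD of the neighbouring groups. The spread within groups, which was not tested, ran wider with ΔEcad, with a coefficient of variation of 18.6% and 24% in Ecad males and females against 59.1% and 80.7% in ΔEcad males and females.

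**Figure D2:**
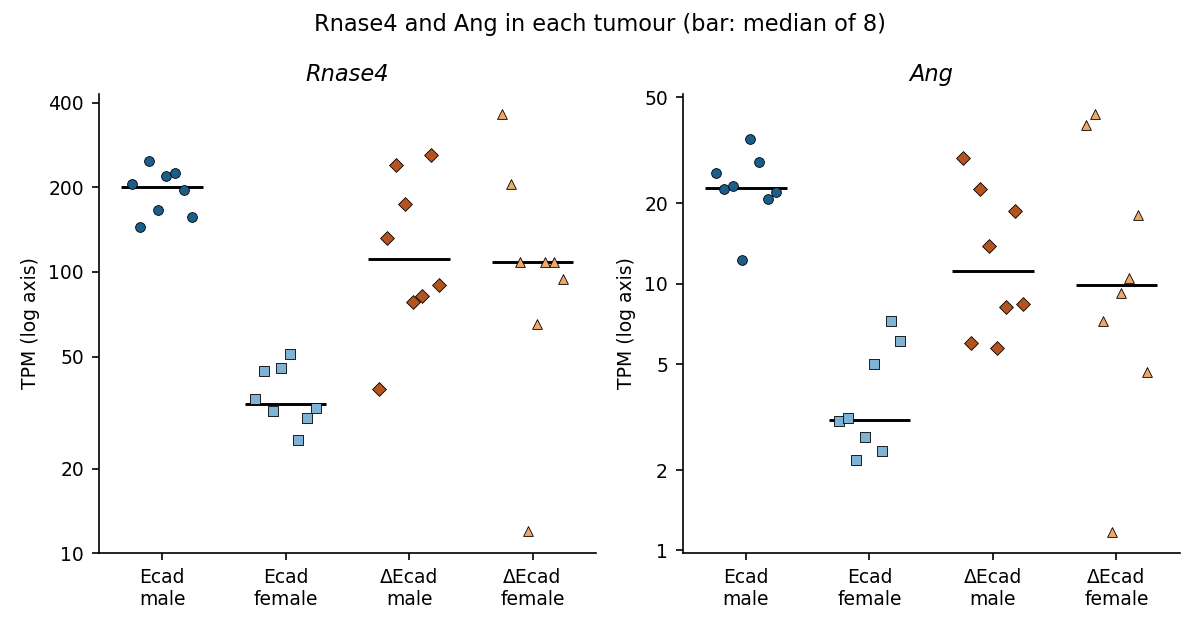
Rnase4 (left) and Ang (right) in TPM on log axes, with 1 point for each of 8 tumours per group and a bar at the median. In both panels all Ecad females sit below all Ecad males, and the ΔEcad groups spread across both, with 1 ΔEcad female (number 4) lowest of all.

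In females, Rnase4 was 3.41-fold higher in ΔEcad than in Ecad tumours (log2 fold change 1.77, SE 0.35, edgeR). It was the 1 member called in this comparison, where 1.2% of all 17717 tested genes were called at an adjusted p under 0.05 and a log2 fold change over 1. As this contrast was used to choose Rnase4, the count says nothing more. The call was lost when any 1 of 10 tumours was left out, namely Ecad females 1, 2, 3, 4, 6, 7 and 8 and ΔEcad females 1, 2 and 7. Without ΔEcad female 1, the highest tumour, the mean of ΔEcad females was 100.5 TPM and the log2 fold change 1.4. The other 9 omissions left the log2 fold change between 1.65 and 1.78, at 1.78 without Ecad female 3.

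In males, the mean of Rnase4 was 137 TPM with ΔEcad against 195 TPM with Ecad (log2 fold change −0.37, SE 0.34, adjusted p = 0.708, edgeR). A total of 0 members were called, by edgeR, DESeq2 or limma voom, and 0 had an unadjusted p under 0.05, beside 0% of all tested genes called. By edgeR 1814 genes had an unadjusted p under 0.05 in this comparison, DESeq2 called 44 genes (0.205%) and limma voom 0. This comparison shares its Ecad males with the sex comparison on which Rnase4 was selected.

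Among Ecad tumours, Rnase4 was lower in females than in males by 2.35 on the log2 scale (SE 0.36, edgeR), and the groups did not overlap. It was again the 1 member called, beside 0.0508% of all tested genes, and the contrast had been used to choose it. Left out in turn, no tumour moved this difference outside −2.43 to −2.28. Among ΔEcad tumours the sexes were at nearly the same level (log2 fold change −0.21, SE 0.34, adjusted p = 0.896, edgeR), with 0 members called by edgeR, DESeq2 or limma voom and 0 at an unadjusted p under 0.05, beside 0.0395% of all tested genes called by edgeR and 0.178% by DESeq2. Without ΔEcad males 2 and 7 and ΔEcad female 3, this small difference was 0.05 with the opposite sign.

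The difference between the 2 genotype effects, that is the interaction of genotype and sex, was 2.14 on the log2 scale for Rnase4 (SE 0.49), built from the contrasts that chose the gene. Over single omissions this value ran from 1.78 to 2.31, and whether it was called by edgeR depended on the tumour left out. Without ΔEcad males 2 and 7 and ΔEcad female 3 together it was 2.40. As the contrasts had chosen the gene, a call of Rnase4 here, by any tool, is no test of it. By edgeR 0 members and 0% of all tested genes were called for the interaction, 3131 genes had an unadjusted p under 0.05, DESeq2 called 1462 genes and limma voom 0. DESeq2, with Rnase4 and Ang among its calls, called 6.81% of the genes to which it gave an adjusted p.

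The tumours are bulk tissue, in which fewer cells of a type and less RNA per cell cannot be told apart. Summed markers of other cell types differed between the groups in their medians, with overlapping ranges. By edgeR and limma voom 0 of 7 keratinocyte and 0 of 7 fibroblast markers were called in any comparison. DESeq2 called 5 and 1 of them for genotype in females and 3 and 0 for sex in Ecad. It called 6.81% and 5.2% of all genes with an adjusted p in these 2 comparisons. All 7 keratinocyte markers were measured, and their summed level ran from 1.32 to 22439 TPM (median 4167) in Ecad males and from 0.2 to 1734 TPM (median 1.77) in the females. With ΔEcad it ran from 1.64 to 14880 TPM (median 440) in males and from 1.67 to 37321 TPM (median 6172) in females. None of the 7 was at 0 counts in all tumours of a group. The sum of 7 fibroblast markers had medians of 1036, 351, 1310 and 1258 TPM for the groups in that order. With keratinocyte and melanocytic scores as covariates the female genotype difference of Rnase4 was 1.21, and with a fibroblast score 1.28 (both edgeR), against 1.77 without covariates, and neither was called. The sex difference in Ecad tumours, on which Rnase4 was also selected, was −1.94 and −2.01 in these fits, against −2.35 without covariates. These values are a description. Single tumours differed in how the 2 values went together. Rnase4 was at 196 TPM in Ecad male 7, whose keratinocyte sum was 1.32 TPM. Ecad male 2 had the lowest Rnase4 of its group (145 TPM) with a keratinocyte sum of 22408 TPM. ΔEcad male 7 had the highest Rnase4 of its group (260 TPM) with a keratinocyte sum of 7.7 TPM. Ecad female 5 had both the highest Rnase4 (50.9 TPM) and the highest keratinocyte sum (1734 TPM) of its group. ΔEcad females 1 and 2 had the highest Rnase4 of their group (364 and 206 TPM), with keratinocyte sums of 21185 and 37321 TPM. The cause of the Rnase4 differences was not tested. Of 6 hepatocyte markers, Apoa1, Serpina1a, Fgb and Hnf4a had at most 8 counts in any tumour, Alb at most 110, and Ttr, which other tissues also make, up to 7968.

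Ang, the gene of angiogenin, was lower than Rnase4 in every tumour on the TPM scale. The lowest, median and highest levels in Ecad tumours were 12.2, 22.9 and 34.9 TPM for males and 2.19, 3.10 and 7.22 TPM for females. With ΔEcad they were 5.73, 11.2 and 29.6 TPM for males and 1.17, 9.86 and 43.1 TPM for females. As for Rnase4, the Ecad males all lay above the Ecad females and ΔEcad female 4 was lowest, but the highest tumour was ΔEcad female 2. How many of all tested genes separated the Ecad sexes in this way was not counted. By edgeR, 16% of them had an unadjusted p under 0.05 for sex in Ecad.

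Mean Ang levels were 23.8 ± 6.53 and 3.96 ± 1.89 TPM for Ecad males and females, and 14.1 ± 8.74 and 16.7 ± 16.0 TPM for their ΔEcad counterparts (SD, n = 8 each). In order from the lowest mean, Ecad females were followed by ΔEcad males, ΔEcad females and Ecad males, and only the first step exceeded the pooled SD. The fitted difference between ΔEcad and Ecad females was 1.99 on the log2 scale (SE 0.54, adjusted p = 0.0521, edgeR), which just missed the threshold. DESeq2 called it (2.08, adjusted p = 0.00265), as did edgeR without ΔEcad males 2 and 7 and ΔEcad female 3 (2.11, adjusted p = 0.0362). It was also called when any 1 of 11 tumours was left out, namely Ecad female 5, Ecad male 7, ΔEcad females 3, 4, 5 and 8 and ΔEcad males 1, 3, 6, 7 and 8, and over all single omissions it ran from 1.64 to 2.19. Without ΔEcad female 1 it was 1.72 and without Ecad female 3 it was 1.92, neither called. Over 16 alternative settings it ran from 1.04 to 2.27. It was not called with any covariate, with limma voom or limma on TPM, with only the groups compared or with a replicate block. Between Ecad females and males the difference was −2.48 (SE 0.54, adjusted p = 0.0814, edgeR), and DESeq2 (adjusted p = 0.000400) and limma voom (adjusted p = 0.0149) called it. Over 16 alternative settings it ran from −2.69 to −1.735, and it was not called with any covariate.

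In ΔEcad against Ecad males Ang differed by −0.31 (SE 0.52, adjusted p = 0.844) and between the sexes in ΔEcad by −0.18 (SE 0.52, adjusted p = 0.948, both edgeR). The interaction was 2.30 (SE 0.74, adjusted p = 0.0860, edgeR), and over 15 alternative settings it ran from 1.19 to 2.78. Without ΔEcad female 4, the interaction (2.48, adjusted p = 0.0405) and the sex difference in Ecad (−2.48, adjusted p = 0.0314) of Ang were called. These tests are not independent of the choice of Rnase4, with which Ang shares its starts and part of its exons.

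The ratio of the neighbours asks whether Rnase4 and Ang moved by different amounts, with the limit that for genotype in females and sex in Ecad it contains the values that chose Rnase4. Its median, as Rnase4 counts for each Ang count, was 12.4 and 17.4 for Ecad males and females, and 18.2 and 15.3 with ΔEcad. The log2 ratio was 3.71 ± 0.38, 3.95 ± 0.71, 3.92 ± 1.22 and 3.87 ± 0.68 in that order (SD, n = 8 each). The difference was −0.08 for genotype in females and 0.24 for sex in Ecad, given as a description. It was 0.20 for genotype in males and −0.05 for sex in ΔEcad, with p = 0.753 and 0.939 by two-sided exact permutation tests over all splits of 8 against 8, and an adjusted p of 0.939 for both over the 4 comparisons. These share their tumours with the comparisons that chose Rnase4.

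One tumour set the ratio in ΔEcad males. ΔEcad male 1 had 1103 Rnase4 and 542 Ang counts, a log2 ratio of 1.02, whereas the other 7 ranged from 3.96 to 5.10. In counts and TPM it had the lowest Rnase4 and the highest Ang of its group. Without it the log2 ratio was higher in ΔEcad than in Ecad males by 0.62 (adjusted p = 0.0342, exact permutation test), and without ΔEcad males 2 and 7 and ΔEcad female 3 the difference was −0.08.

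Rnase1, the ribonuclease of endothelium and pancreas (ENSMUSG00000035896, chr14:51144998-51146785, minus strand), was measured in all 32 tumours. Its lowest, median and highest levels with Ecad were 5.19, 10.95 and 44.2 TPM for males and 0.28, 2.76 and 12.2 TPM for females. With ΔEcad they were 0.32, 8.27 and 22.5 TPM for males and 0.80, 6.79 and 28.0 TPM for females. All 4 groups overlapped, and no step in the order of the means exceeded the pooled SD. The log2 fold change was 1.16 (SE 0.73, adjusted p = 0.493) for genotype in females and −0.51 (SE 0.72, adjusted p = 0.811) for genotype in males. It was −1.85 (SE 0.74, adjusted p = 0.206) for sex in Ecad and −0.18 (SE 0.72, adjusted p = 0.966) for sex in ΔEcad (edgeR). The signs for genotype in females and sex in Ecad were those of Rnase4 and Ang, but no difference was called.

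Rnase6, the ribonuclease of monocytes and macrophages (ENSMUSG00000021880, chr14:51123908-51132187, plus strand), was low throughout. Its lowest, median and highest levels with Ecad were 0.31, 1.5 and 4.23 TPM for males and 0, 0.72 and 3.95 TPM for females. With ΔEcad they were 0.17, 2.96 and 5.22 TPM for males and 0.13, 1.96 and 4.50 TPM for females. The groups overlapped almost fully. Its largest log2 fold change in the 4 comparisons was 0.91 (SE 0.80, adjusted p = 0.696, edgeR), for genotype in males.

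Rnase2a (ENSMUSG00000047222, chr14:51255262-51256112, minus strand), a gene of eosinophil-type ribonucleases, was at the limit of detection. It had 62 counts over 32 tumours, of which 41 came from ΔEcad male 7, the tumour with almost no melanocytic reads. It was at 0 counts in all 8 Ecad females, and 3 tumours had more than 3 counts. No fold is given for it.

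Rnh1 (ENSMUSG00000038650, chr7:141160326-141172857, minus strand), the inhibitor, had the highest mean of all members in every group. The lowest, median and highest levels with Ecad were 201, 294 and 344 TPM for males and 166, 284 and 410 TPM for females. With ΔEcad they were 148, 246 and 529 TPM for males and 130, 231 and 328 TPM for females. The groups overlapped, and the log2 fold changes were −0.23 (SE 0.26, adjusted p = 0.757) and 0.23 (SE 0.26, adjusted p = 0.762) for genotype in females and males, and −0.03 (SE 0.26, adjusted p = 0.973) and −0.49 (SE 0.26, adjusted p = 0.594) for sex in Ecad and ΔEcad (edgeR).

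**Figure D3:**
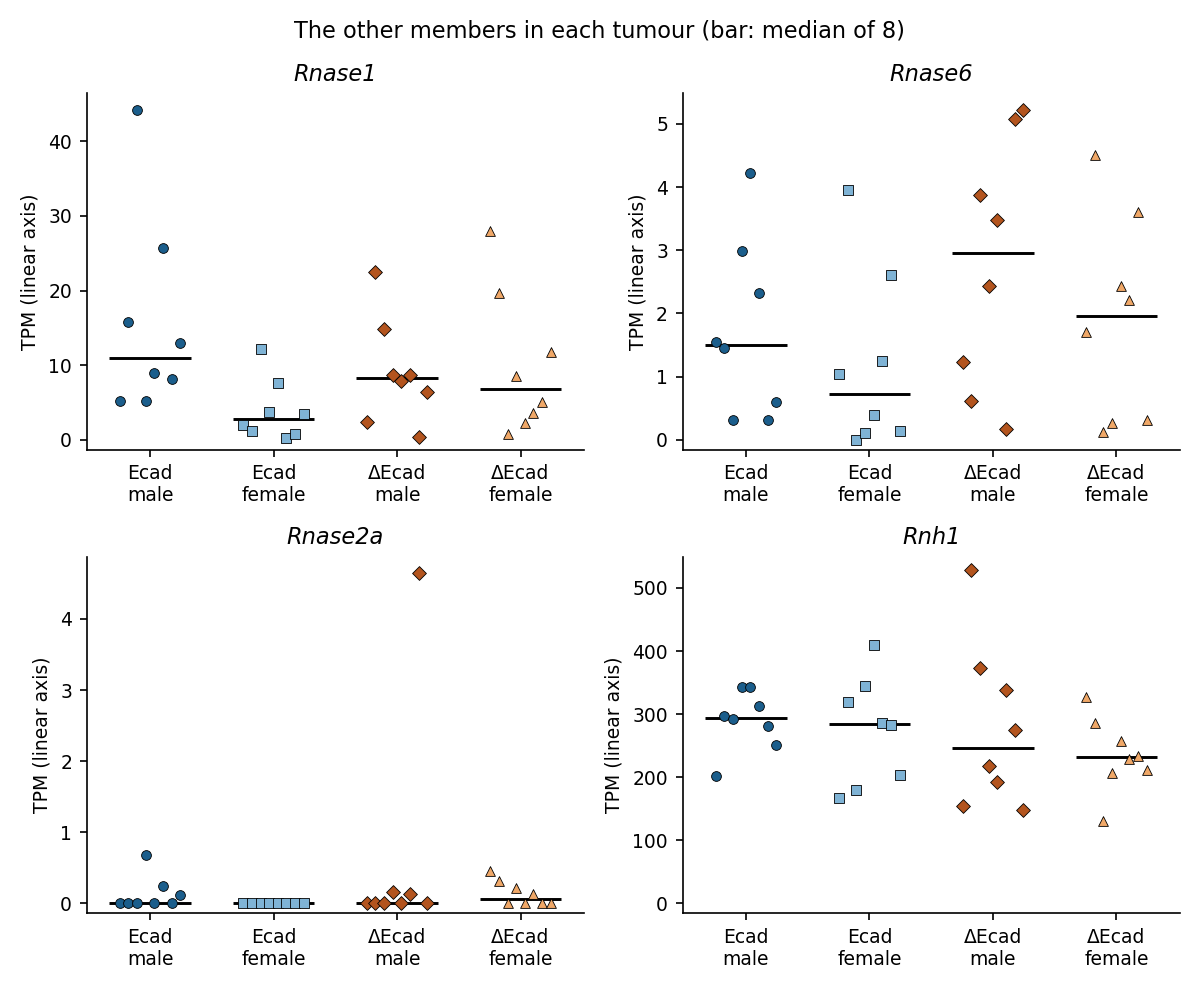
Rnase1, Rnase6, Rnase2a and Rnh1 in TPM on linear axes, with 1 point for each of 8 tumours per group and a bar at the median. The groups overlap in every panel, Rnase2a is at or near 0 except for ΔEcad male 7 at 4.64 TPM, and Rnh1 lies between 130 and 529 TPM.

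**Figure D4:**
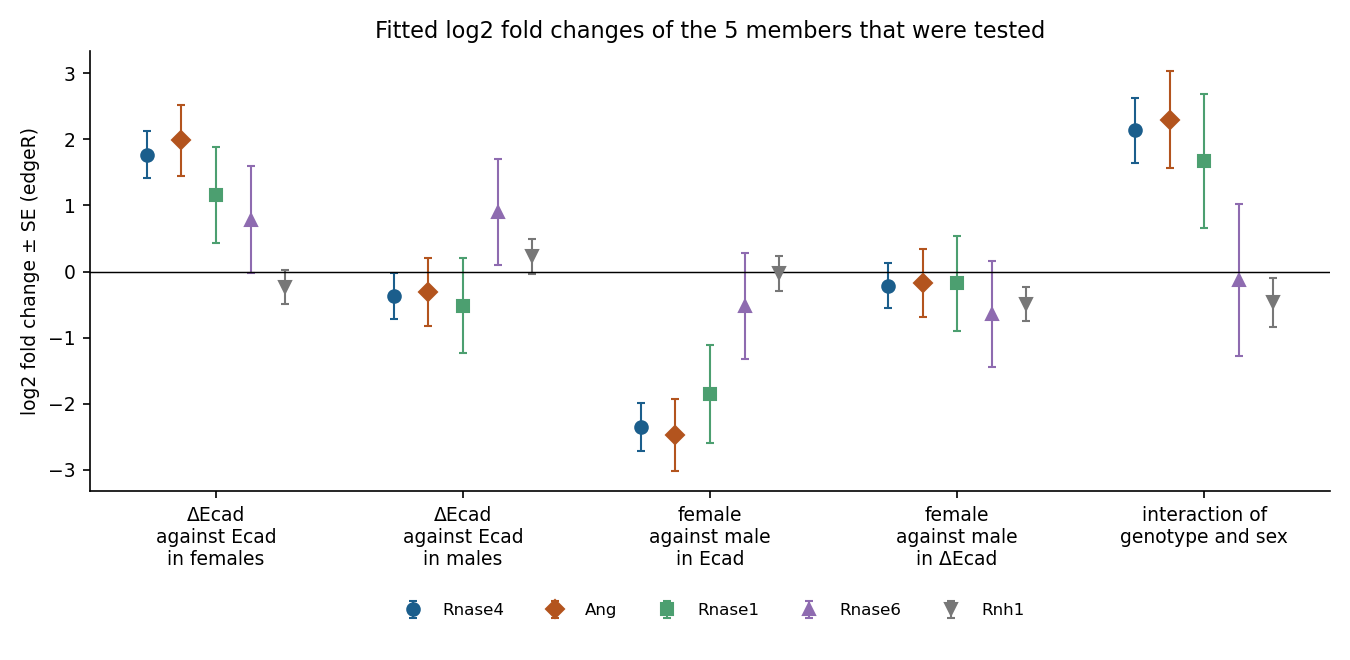
Fitted log2 fold changes of the 5 tested members in the 4 comparisons and the interaction, with bars of 1 SE on each side (edgeR, 32 tumours). Rnase4 and Ang run together at 1.77 and 1.99 for genotype in females and −2.35 and −2.48 for sex in Ecad, and lie near 0 in the comparisons of genotype in males and sex in ΔEcad.

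Within groups, members were compared with each other and with marker scores by the correlation of log2 CPM (counts scaled to library size) over 32 tumours after group means were removed, in 51 relations tested by 100000 permutations within groups. A total of 5 relations passed at an adjusted p under 0.05. Rnase6 went with the macrophage score (Pearson's r = 0.70, permutation p = 1e-05, the smallest possible, adjusted p = 0.00051, Spearman's rho = 0.76, adjusted p = 0.00051). The relation held in each group, with r between 0.70 and 0.91, and without the 2 tumours farthest from the median (r = 0.70).

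Rnase4 went with the fibroblast score (r = 0.54, permutation p = 7e-05, adjusted p = 0.00178, rho = 0.61, adjusted p = 0.00280), also without the 2 farthest tumours (r = 0.54). Within groups r was 0.28 and 0.40 for Ecad males and females, and 0.76 and 0.84 with ΔEcad. Ang did not follow that score over the 32 tumours (r = 0.03, permutation p = 0.855, adjusted p = 0.872, rho = 0.17, adjusted p = 0.53), and whether the 2 correlations differ was not tested. Its r went in opposite directions within groups, at 0.14 and −0.41 for Ecad males and females, and −0.35 and 0.67 for ΔEcad males and females. Against the keratinocyte score Rnase4 had r = 0.37 (permutation p = 0.0892, adjusted p = 0.314, rho = 0.34, adjusted p = 0.246), which was 0.09 without the 2 farthest tumours. Within groups this r was −0.24 and 0.60 for Ecad males and females, and −0.24 and 0.77 for ΔEcad males and females.

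Rnase1 went with the endothelial score (r = 0.55, permutation p = 0.00108, adjusted p = 0.0184, rho = 0.52, adjusted p = 0.0240, and r = 0.50 without the 2 farthest tumours). Within groups this r was 0.13 and 0.55 for Ecad males and females, and 0.49 and 0.82 for ΔEcad males and females. Rnase1 also went with the keratinocyte score by r alone (r = 0.52, permutation p = 0.00342, adjusted p = 0.0436, rho = 0.50, adjusted p = 0.0713, and r = 0.39 without the 2 farthest tumours). Within groups it was 0.07 and 0.78 for Ecad males and females, and 0.51 and 0.61 for ΔEcad males and females. Without ΔEcad males 2 and 7 and ΔEcad female 3, 2 relations passed, Rnase6 with the macrophage score (r = 0.75, adjusted p = 0.00255) and Rnase4 with the fibroblast score (r = 0.51, adjusted p = 0.00969, both by permutation).

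Rnase4 and Ang were related by r = 0.66 (permutation p = 0.00485, adjusted p = 0.0495), but not by rank (rho = 0.47, adjusted p = 0.125). The pooled value depended on few tumours. It was r = 0.34 without the 2 farthest, and within groups r was 0.34 and −0.02 for Ecad males and females, and 0.07 and 0.92 with ΔEcad. The low value of the ΔEcad males came from ΔEcad male 1, the tumour with the lowest ratio, and without it r was 0.85 over the other 7. Leaving out each tumour in turn, r stayed between 0.86 and 0.95 in ΔEcad females, between 0.14 and 0.55 in Ecad males and between −0.19 and 0.31 in Ecad females.

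**Figure D5:**
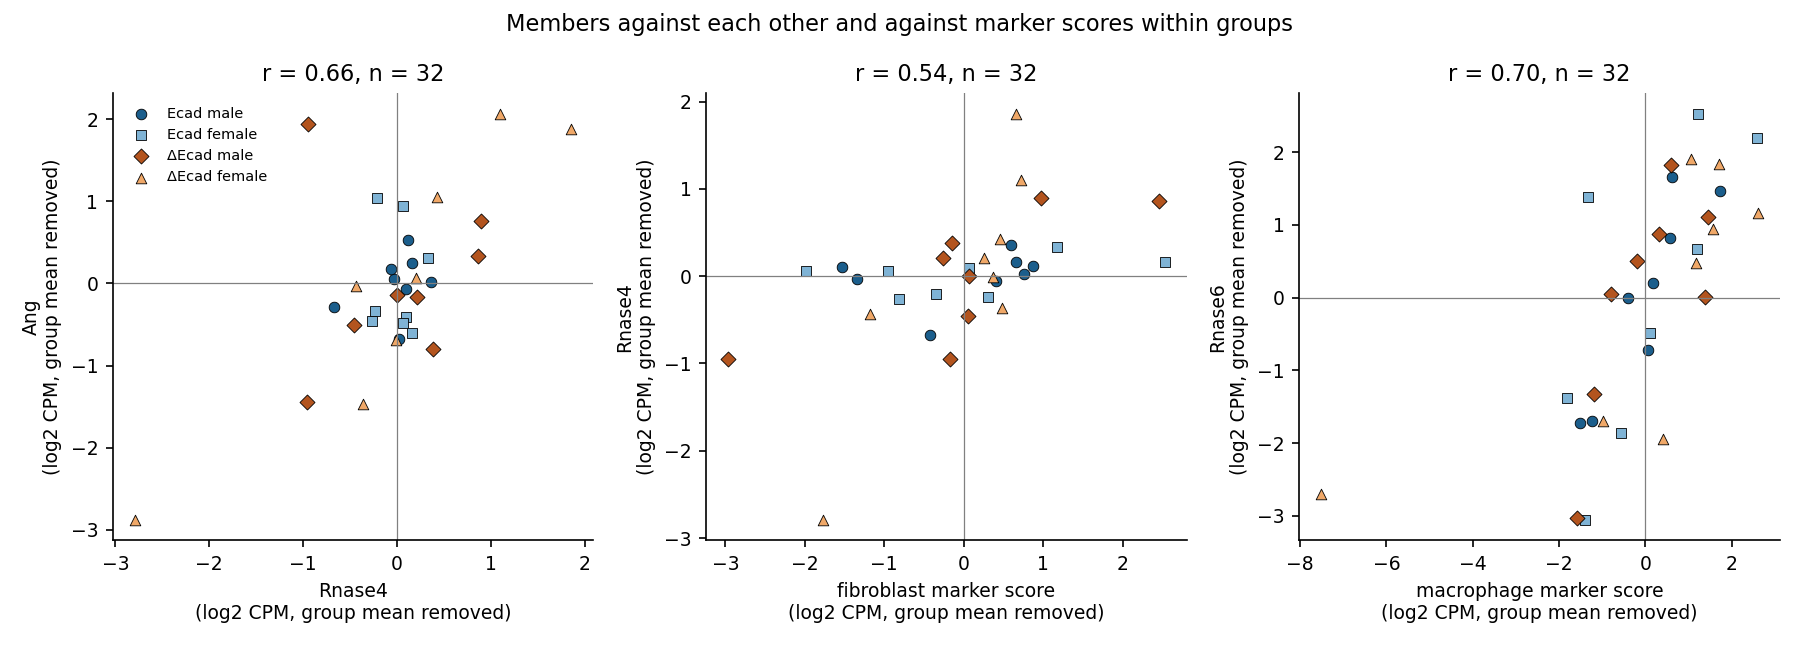
Log2 CPM with group means removed for Ang against Rnase4, Rnase4 against the fibroblast score and Rnase6 against the macrophage score, with 1 point for each of 32 tumours. The points of the right panel rise together in all groups (r = 0.70), whereas on the left the ΔEcad females (triangles) and 7 of the 8 ΔEcad males (diamonds) rise together, with ΔEcad male 1 at the upper left.

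In the wider ribonuclease A family of 20 genes, 7 were tested, and Rnase4 was the 1 called by edgeR in each of the comparisons on which it was selected. DESeq2 called 3 there, Rnase4, Ang and Ear2, but it also called 6.81% of all genes with an adjusted p for genotype in females and 5.2% for sex in Ecad. For genotype in females 7 of 7 lay above 0 with a median log2 fold change of 1.77, and for sex in Ecad 0 of 7 with a median of −2.35. Genes that passed the filter through the groups where they were high had to differ, and the 7 are no separate support. Rnase4 made up a median of 76.1 to 77.8% of the summed family TPM in each group, and 47.1 to 86.9% in single tumours. Among family genes that are not members, Ear2, an eosinophil-associated ribonuclease that macrophages also express, ran from 0.34 to 14.7 TPM for Ecad males and 0.16 to 2.05 TPM for Ecad females, and reached 50.3 and 56.8 TPM in single ΔEcad tumours. Its log2 fold change was 3.81 (SE 1.03, adjusted p = 0.0522, edgeR) for genotype in females, and −2.68 (SE 0.99, adjusted p = 0.169, edgeR) for sex in Ecad. Ear2 and Rnase2a belong to a cluster of near-identical copies, so their reads may be split between genes. Ang2, a second angiogenin gene, was not tested and reached 13.1 TPM in ΔEcad female 2 with medians of at most 0.56 TPM.

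Of 10 genes known to act with or upstream of angiogenin, 9 were tested and edgeR, DESeq2 and limma voom called 0 in any comparison or the interaction, where 0 and 1 had an unadjusted p under 0.05. The median log2 fold change of the 9 for genotype in females was −0.01, beside −0.02 over all tested genes. Plxnb2, the receptor, ran from 48.8 to 255 TPM, and its log2 fold change was −0.01 (SE 0.28, adjusted p = 0.993, edgeR) for genotype in females and 0.42 (SE 0.28, adjusted p = 0.477, edgeR) for sex in Ecad. Of 16 other ribonucleases, all tested, the same tools called 0 and edgeR gave 0 an unadjusted p under 0.05. Over all genes edgeR called 1.2% for genotype in females and 0.0508% for sex in Ecad, and DESeq2 6.81% and 5.2%. The shares with an unadjusted p under 0.05 were 15.3% and 16% (edgeR). Beside such shares, 0 calls in lists this short do not show that these genes were unaffected. Their median was −0.02 for genotype in females and 0.21 for sex in Ecad, beside −0.02 and 0.05 over all genes. Rnaset2a and Rnaset2b, close copies that encode a lysosomal ribonuclease, had log2 fold changes of −0.39 and −0.56 for genotype in females (adjusted p = 0.685 and 0.559, edgeR).

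Of 61 annotated genes within 500 kb of Rnase4, 46 were in the tables, 16 were tested and edgeR called 0 in any comparison. Unadjusted, 4 of them had a p under 0.05 for genotype in females and 4 for sex in Ecad, where DESeq2 called 2 (Klhl33, named after its value was seen, and Ang) and 1 (Ang). Over all tested genes 15.3% and 16% had such an unadjusted p, and DESeq2 called 6.81% and 5.2% of the genes to which it gave an adjusted p. The median log2 fold change of the 16 was 0.23 for genotype in females and −0.24 for sex in Ecad, with 11 and 5 of 16 above 0, beside 48.4% and 53.9% of all tested genes. Rnase4 itself was not counted, and Ang was. Among the other lists, Bpifa2 and Amy1 of 5 tested salivary gland genes were called lower in ΔEcad than in Ecad females, and both rested on Ecad female 3 with 353755 and 367688 counts against at most 781 and 601 in any other tumour.

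The genes most like each member in their variation within groups, by Pearson's r over 32 tumours, are named as a description. For Rnase4 they were Emp2, a tetraspan membrane protein of epithelia (r = 0.73), 5430421F17Rik (r = 0.72), Piwil2 (r = 0.68), Stc2, a secreted glycoprotein (r = 0.68), and Ttc9 (r = 0.68). For Ang they were the choline transporter Slc44a2 (r = 0.84), Gm20257 (r = 0.76) and an unnamed gene, ENSMUSG00000108658 (r = 0.76). Rnase1 had Bdh1 (r = 0.78), Llgl2 (r = 0.73) and 4930431P19Rik (r = 0.69). Rnase6 had genes of immune cells, Sh2d1b1 (r = 0.91), Cd2 (r = 0.89) and Cd74 (r = 0.89), and Rnh1 had Gpx1, which reduces peroxides (r = 0.82), the protease inhibitor Cstb (r = 0.77) and Fbxo6 (r = 0.75).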

How the data were processed

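Tumour RNA was extracted with miRNeasy kits and sequenced as paired reads from TruSeq stranded mRNA libraries. The authors checked reads with FastQC 0.11.5 aligned them with STAR to mm10 (GRCm38.p5, GENCODE annotation), and made the expression matrices with STAR. Their methods add that ComBat was used for batch correction where applicable. The deposited files were whole-number gene counts and TPM values (abundance scaled by gene length and library size). The counting of reads over several genes, the use of strand, and whether the batch correction touched these tables were not given in the sources used here. All 32 columns matched a labelled tumour.

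The members and lists were chosen with earlier results of these data known. Symbols, exons and positions came from GENCODE M21, which named 50376 of 50600 rows, and promoters from RefSeq (GRCm38.p6). Counts of all 32 tumours were fitted with edgeR 4.0.16 (TMM, filterByExpr, robust quasi-likelihood F test, 1 coefficient per group, R 4.3.3) and called where the p adjusted by Benjamini-Hochberg was under 0.05 with a log2 change beyond 1 either way. SE was the log2 fold change over the square root of F. DESeq2 1.42.0, limma 3.58.1 (voom, and log2 TPM), other filters, scalings, covariates and left-out tumours were alternatives. Leaving out ΔEcad males 2 and 7 and ΔEcad female 3 together, r within groups without each tumour, and Spearman's rho were added after seeing the data. The ratio used counts plus 1. Marker scores were mean log2 CPM (prior count 1). Named genes were the members, list genes called in any comparison, Plxnb2, Ang2, Ear2, Rnaset2a and Rnaset2b, and the 5 (Rnase4) or 3 (other members) genes with the highest r that do not overlap the member. Scripts were checked on simulated data.

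Tumours were not treated as paired by replicate number, because neither the labels nor the methods describe pairing. Same-numbered tumours of 2 groups correlated between −0.547 and 0.425 in their deviations from group means, over 0.1 in 17 of 48 cases. Such values cannot exclude pairing.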

Additional observations from a re-analysis of the deposited data

Results flagged for a closer look

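Among 28 sets of 8 tumours (6 members and the log2 ratio in 4 groups), 4 held a tumour whose gap to the nearest other exceeded Dixon's 95% limit, where chance gives about 1 in 20. Rnase4 in Ecad male 2 was 6.35 log2 CPM, below 6.96 to 7.38 in the other 7 Ecad males. Rnase1 in ΔEcad male 7 was −2.98, below 0.57 to 3.31 in the others. Rnase2a in the same tumour was 0.066, above −5.19 to −3.98 in the others, which are the values of 0 or 1 count. The log2 ratio of Rnase4 to Ang in ΔEcad male 1 was 1.02, below 3.96 to 5.10 in the others.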

How the results depend on the processing

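The number of members called for genotype in females, 1 as reported, was 2 (Rnase4 and Ang) at an adjusted p under 0.1, with DESeq2, with RLE size factors, with no filter and with 3 libraries (ΔEcad males 2 and 7 and ΔEcad female 3) left out, the last chosen after seeing the data. It was 0 with fibroblast, macrophage, or keratinocyte and melanocytic covariates, with limma on log2 TPM plus 0.1 or plus 1, with limma voom, with only the groups compared and with a replicate block (Rnase4 at 1.61, Ang at 1.65), and 0 to 2 with 1 tumour left out. The log2 fold change of Rnase4 was 1.75 with the macrophage covariate, 1.76 with voom and 1.78 with only the groups compared, near the reported 1.77, but 1.28 with the fibroblast covariate, 1.21 with the keratinocyte and melanocytic covariates and 1.4 and 1.39 with limma on TPM. For sex in Ecad, 1 as reported, it was 2 at an adjusted p under 0.1, with DESeq2, limma on TPM, limma voom and only the groups compared, and 1 to 2 with 1 tumour left out. For the interaction, 0 as reported, it was 2 at an adjusted p under 0.1 and with DESeq2, 1 with RLE size factors and with no filter, and 0 to 2 with 1 tumour left out. It was 0 for genotype in males and sex in ΔEcad in every alternative run. Over all genes, edgeR, DESeq2 and limma voom called 213, 1548 and 1 for genotype in females. They called 9, 1148 and 92 for sex in Ecad, and 0, 1462 and 0 for the interaction. The counts of members are to be read beside these totals, which are not given for the other settings. Where Rnase4 is among the members called, it had been chosen on these same contrasts, so its calls are a description. The cause of the changes between settings was not tested. The replicate block changed no other call, and 5 of 48 same-numbered pairs were best matched with their own number. Relations past the threshold, 5 as reported, were 12 with group means not removed and 2 with the 3 libraries left out.

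Several uncalled differences near 0 changed sign. With the 3 libraries left out the log2 ratio differed by −0.081 for genotype in males and 0.14 for sex in ΔEcad, Rnh1 by −0.023 for genotype in males, and Rnase4 by 0.051 and Rnase1 by 0.25 for sex in ΔEcad. With limma on TPM, Rnh1 was −0.17 (both pseudocounts) for genotype in males, Rnase1 0.083 and 0.024 for sex in ΔEcad, and Rnase6 0.31 for the interaction. With voom, Rnh1 was 0.020 for sex in Ecad, Ang 0.13 and Rnase1 0.034 for sex in ΔEcad, and Rnase6 0.79 for the interaction. With keratinocyte and melanocytic covariates, Rnase1 was 0.058 for genotype in males, and Rnase6 0.023 and Rnh1 0.14 for sex in Ecad. With the macrophage covariate, Rnase6 was 0.039 for sex in Ecad, 0.055 for sex in ΔEcad and 0.016 for the interaction, and Rnh1 0.030 for sex in Ecad. With the fibroblast covariate Rnh1 was 0.040 for sex in Ecad, and with the replicate block Rnase1 was 0.24 for sex in ΔEcad. With 1 tumour left out, Rnh1 ran from −0.052 to 0.33 for genotype in males and −0.12 to 0.10 for sex in Ecad. For sex in ΔEcad Ang ran from −0.53 to 0.42 and Rnase1 from −0.57 to 0.29, and Rnase6 from −0.42 to 0.32 for the interaction. The log2 ratio ran from −0.26 to 0.055 for genotype in females, 0.035 to 0.62 for genotype in males, 0.13 to 0.41 for sex in Ecad and −0.46 to 0.12 for sex in ΔEcad. Fitting only the groups compared gives no separate interaction. Depth limits Rnase2a and, with 0 to 71 counts in a tumour, Rnase6.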
